A study of Mus musculus with 10 samples.

Results

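The 10 genes described here encode receptor chains through which a T cell senses IL-12, IL-18, IL-27, IL-6, interferon-γ (IFN-γ) and type I interferon, namely Il12rb1, Il12rb2, Il27ra, Il6st, Il6ra, Il18r1, Il18rap, Ifngr1, Ifngr2 and Ifnar1. They were taken by gene name from the 57825 genes of the expression table, and the rule used none of their values, although the set was proposed with earlier results of these data known. All 10 passed the filter, an average of 0.5 FPKM or more across the samples, which left 15710 genes for testing. FPKM scale the fragments of a gene to its length and to the depth of its library, so levels of different genes could be set side by side.

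The study asked how acetate changes CD8+ T cells that meet tumor cells. CD8+ T cells came from the spleens of female Balb/c mice, 7 to 8 weeks old. They were activated for 12 h on plate-bound anti-CD3 with anti-CD28 (1 μg/ml) and IL-2 (15 ng/ml). Between activation and co-culture, the T cells of 5 samples received 5 mM sodium acetate (NaAc) for 24 h (CD8+4T1+NaAc). Those of the other 5 received no sodium acetate (CD8+4T1). Both groups were then co-cultured for 48 h with 4T1 cells, a mouse mammary carcinoma line. RNA was taken from purified CD8+ T cells, at day 3 by the sample labels. The paper describes a purification from spleen and states none after the co-culture. Activation, IL-2 and tumor cells were thus shared by both groups, no sample lacked 4T1 cells, and the sources used here do not say whether samples of a group came from separate mice, so p-values measure the spread between these samples only.

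The receptors follow a small number of plans. IL-12Rβ1 and IL-12Rβ2 together bind IL-12 and act through JAK2, TYK2 and STAT4, which in CD8+ T cells favors IFN-γ production and cytotoxicity. IL-27Rα and IL-6Rα both need the shared signaling chain gp130 (Il6st), which acts largely through STAT3. IL-18R1 with IL-18RAP uses MyD88, whereas the chains for IFN-γ (IFNGR1, IFNGR2) and for type I interferon (IFNAR1, IFNAR2) use JAK kinases and STAT factors.

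The FPKM of a sample referred to between 16306447 and 18853726 fragments. Listed genes held 95.5 to 97.9% of these fragments in CD8+4T1 samples and 89.8 to 92.1% in CD8+4T1+NaAc samples, so the values were also rescaled to the same total, which moved the median log2 difference of all tested genes from -0.02 to 0.15. The CD8 chains Cd8a and Cd8b1 were present in every sample, with Cd8a averaging 78.6 ± 2.34 FPKM (SD, n = 5) without NaAc and 76.5 ± 4.37 FPKM with it. Of 12 T cell markers, 1 was called higher, Zap70 (log2 0.27). Called lower were 6, Cd3d (log2 -0.54), Cd3g (-0.53), Cd3e (-0.36), Lck (-0.32), Cd2 (-0.29) and Cd5 (-0.27). The other 5, Cd247 (-0.02), Cd8a (-0.04), Cd8b1 (0.165), Cd28 (0.05) and Thy1 (-0.10), were not called. The Zap70 call was kept in 6 and the Cd2 call in 2 of 10 fits that left out a sample. Over all tested genes, 17.6% were called higher and 19% lower. Rescaling to the same total gave 4 higher and 4 lower calls among these markers, against 31.2% and 8.83% of all tested genes. Of 15 markers of 4T1 and other epithelial cells, 8 passed the filter and 5 of these (Krt8, Krt18, Krt7, Lcn2 and Spint1) were called higher, none lower. The other 3, Epcam (log2 0.41), Cldn7 (-0.0027) and Spint2 (-0.11), were not called. Spint2 averaged 20.7 FPKM without NaAc and 19.2 FPKM with it. Krt7 averaged under 0.5 FPKM without NaAc and passed the filter only through the NaAc group. The summed FPKM of the 15 ranged from 32.9 to 44.1 in CD8+4T1 and from 89.1 to 203.9 in CD8+4T1+NaAc. Krt5, Krt14, Krt19, Cldn4 and Esrp1 were at 0 in some samples and none of the 15 was at 0 in all. Cd4 rose from 0.541 to 1.60 FPKM (log2 difference 1.44, limma adjusted p = 0.000317), Foxp3, the regulatory T cell factor, was below the filter at 0.221 and 0.179 FPKM, and the B cell and NK cell markers were at or below 1.445 FPKM in every sample. Of 3 tested myeloid markers 1, Lyz2 (0.536 to 1.12 FPKM), was called higher. The Lyz2 call was kept in 4 of 10 fits that left out a sample and lost with no filter on low values (limma adjusted p = 0.0540).

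Of the 10 receptor genes, 5 were called higher in CD8+4T1+NaAc (Il6st, Il6ra, Ifngr1, Il27ra and Il12rb2), none was called lower, and Il12rb1, Il18r1, Il18rap, Ifngr2 and Ifnar1 did not pass the test. A gene was called at an adjusted p under 0.05 from limma on log2(FPKM + 0.1), a scale that understates the change of genes at low FPKM. Over all tested genes, 17.6% were called higher and 19% lower. The median log2 difference was 0.19 over the 10 receptors and -0.02 over all tested genes. The 5 calls were of modest size, the largest log2 difference being 0.65. In bulk samples such as these, fewer cells of a type and less RNA per cell cannot be told apart.

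**Figure D1:**
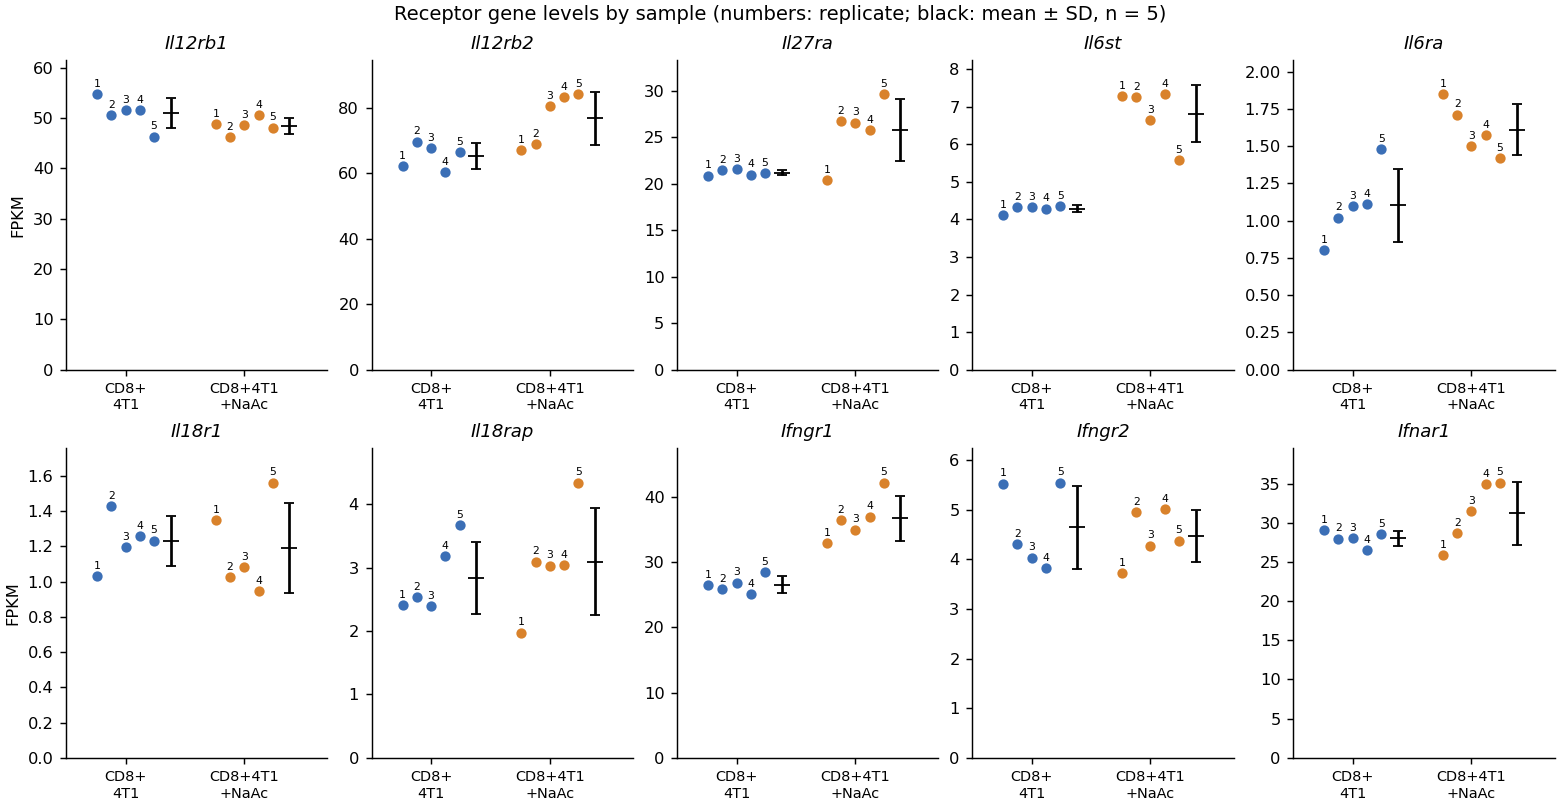
FPKM of each of the 10 receptor genes in every sample (vertical axes, 1 panel per gene; points are samples with their replicate number, black marks are the mean ± SD, n = 5 per group). Il6st and Ifngr1 separate the groups without overlap, whereas in the other panels the groups overlap.

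The chains differed widely in level. In CD8+4T1 samples Il12rb2 (65.3 ± 3.91 FPKM) stood above Il12rb1 (50.9 ± 3.002), and Ifnar1 (28.0 ± 0.962), Ifngr1 (26.6 ± 1.27) and Il27ra (21.2 ± 0.294) followed. Ifngr2 (4.65 ± 0.832) and Il6st (4.29 ± 0.0952) were lower still, and Il18rap (2.84 ± 0.567), Il18r1 (1.23 ± 0.142) and Il6ra (1.10 ± 0.244) were the lowest of the 10. The ranges of neighbors in this order overlapped for Ifnar1 and Ifngr1, for Ifngr2 and Il6st, and for Il18r1 and Il6ra, and were apart elsewhere. With NaAc the order was Il12rb2, Il12rb1, Ifngr1, Ifnar1, Il27ra, Il6st, Ifngr2, Il18rap, Il6ra and Il18r1. There the ranges overlapped for Ifngr1 and Ifnar1, for Ifnar1 and Il27ra, for Ifngr2 and Il18rap, and for Il6ra and Il18r1.

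To show what lies at the start sites of the receptor genes whose levels differed, promoter windows were read from RefSeq on GRCm38.p6, each from 250 bases before to 50 bases after a start site. Of the 10 genes, 8 had an entry, with 10 windows in all, and Il12rb1 and Il27ra had none. The 3 windows below are those of the called genes with a motif found: Il12rb2 (chr6:67376139-67376438, minus strand), Ifngr1 (chr10:19591699-19591998, plus strand) and Il6st (chr13:112463820-112464119, plus strand). They are written 5′ to 3′ along the gene, with the motifs found in capitals.
Il12rb2: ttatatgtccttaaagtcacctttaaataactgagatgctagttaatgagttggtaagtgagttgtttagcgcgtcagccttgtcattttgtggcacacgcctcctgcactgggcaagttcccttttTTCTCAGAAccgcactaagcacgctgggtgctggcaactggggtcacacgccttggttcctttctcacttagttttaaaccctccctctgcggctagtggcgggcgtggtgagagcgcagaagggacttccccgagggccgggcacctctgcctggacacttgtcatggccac
Ifngr1: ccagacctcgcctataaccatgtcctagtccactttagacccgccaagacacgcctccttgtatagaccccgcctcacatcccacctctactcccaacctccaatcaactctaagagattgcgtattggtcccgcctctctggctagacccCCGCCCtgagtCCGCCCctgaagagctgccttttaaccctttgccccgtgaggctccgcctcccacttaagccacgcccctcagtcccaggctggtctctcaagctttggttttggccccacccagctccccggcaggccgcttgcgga
Il6st: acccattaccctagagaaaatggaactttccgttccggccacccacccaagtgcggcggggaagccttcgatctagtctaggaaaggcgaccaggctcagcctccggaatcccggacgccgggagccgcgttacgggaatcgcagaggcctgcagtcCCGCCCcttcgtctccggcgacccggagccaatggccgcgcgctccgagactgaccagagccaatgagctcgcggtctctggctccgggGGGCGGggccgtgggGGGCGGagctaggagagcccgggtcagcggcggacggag
Both strands were searched for the interferon-γ activation site GAS (TTCNNNGAA), the interferon response element ISRE (GAAA and GAAA with NN between), AP-1 (TGANTCA), the GC box (GGGCGG) and the TATA box (TATAAA).

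The capitals in Il12rb2 are a GAS, with its first base at -123 from the start site. Those in Ifngr1 are 2 GC boxes, at -99 and -88, and those in Il6st are 3 GC boxes, at -93, -4 and 12, all given by the first base. Of the uncalled genes, Ifnar1 had a GAS at -5 and 4 GC boxes, Ifngr2 had 4 GC boxes, and 1 of 3 Il18r1 windows had 2 GAS, at -219 and -152. Il6ra and Il18rap held none of the 5 motifs, and no window of the 8 genes held an ISRE, AP-1 or TATA box. Among 32851 windows of the same length, a GAS occurred in 8.3%, an ISRE in 3.44%, AP-1 in 7.81%, a GC box in 35.7% and a TATA box in 13.6%. A match describes the letters of the window and is not a measured binding site.

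The clearest difference among the chains was in gp130, the shared signal transducer of the IL-6 and IL-27 receptors. Il6st (ENSMUSG00000021756, chr13:112600604-112646620, plus strand, as listed in the deposited table, whose genome build is not given in the sources used here) was at 4.12, 4.33, 4.34, 4.29 and 4.35 FPKM in CD8+4T1 replicates 1 to 5 and at 7.29, 7.26, 6.64, 7.33 and 5.57 FPKM in CD8+4T1+NaAc replicates 1 to 5. Every NaAc sample lay above every CD8+4T1 sample, and replicate 5 was the lowest with NaAc. The mean rose from 4.29 ± 0.0952 to 6.82 ± 0.752 FPKM (log2 difference 0.65, SE 0.08, 95% interval 0.48 to 0.83, limma adjusted p = 0.000153). Among all tested genes 13.1% were likewise higher with no overlap between groups, as were 2 of the 10 receptors. The call held when any single sample was left out.

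Il6ra, the IL-6-binding chain (ENSMUSG00000027947, chr3:89771366-89820503, minus strand), was at 0.803, 1.02, 1.10, 1.11 and 1.48 FPKM in CD8+4T1 and at 1.85, 1.71, 1.5004, 1.57 and 1.42 FPKM with NaAc. The groups overlapped through replicate 5, the highest without NaAc and the lowest with it. The mean rose from 1.10 ± 0.244 to 1.61 ± 0.170 FPKM (log2 difference 0.53, SE 0.16, 95% interval 0.18 to 0.87, limma adjusted p = 0.0219). These values rest on 116 to 279 fragments per sample, and without replicate 1 of both groups the difference was 0.38 with an adjusted p of 0.0565 by limma.

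Il27ra, the chain that binds IL-27 (ENSMUSG00000005465, chr8:84756923-84769218, minus strand), was at 20.9, 21.5, 21.5, 21.0 and 21.1 FPKM in CD8+4T1 and at 20.4, 26.7, 26.6, 25.8 and 29.6 FPKM with NaAc. Replicates 2 to 5 with NaAc lay above all CD8+4T1 samples and replicate 1 below all of them. The mean rose from 21.2 ± 0.294 to 25.8 ± 3.35 FPKM (log2 difference 0.27, SE 0.08, 95% interval 0.09 to 0.46, limma adjusted p = 0.0254). Without NaAc replicate 1 the difference was 0.35 (adjusted p = 0.000170 by limma). The call was lost, at limma adjusted p from 0.0501 to 0.0578, when CD8+4T1 replicate 4 or 5 or NaAc replicate 2, 3, 4 or 5 was left out.

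The IL-12 receptor chains were the most abundant of the set and did not share a call. Il12rb1 (ENSMUSG00000000791, chr8:71261093-71274068, plus strand), which also serves the IL-23 receptor, was at 54.7, 50.6, 51.5, 51.5 and 46.3 FPKM in CD8+4T1 and at 48.7, 46.2, 48.5, 50.6 and 48.1 FPKM with NaAc. The ranges overlapped, and the difference did not pass the test (log2 -0.07, SE 0.05, 95% interval -0.18 to 0.04, limma adjusted p = 0.302).

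Il12rb2, the chain that recruits STAT4 (ENSMUSG00000018341, chr6:67268302-67353172, minus strand), was at 62.3, 69.7, 67.7, 60.3 and 66.6 FPKM in CD8+4T1 and at 67.0, 69.0, 80.5, 83.4 and 84.1 FPKM with NaAc. NaAc replicates 3 to 5 lay above all CD8+4T1 samples, and replicates 1 and 2 lay within their range. The mean rose from 65.3 ± 3.91 to 76.8 ± 8.16 FPKM (log2 difference 0.23, SE 0.08, 95% interval 0.06 to 0.40, limma adjusted p = 0.0377). The call held in 3 of 10 fits that left out a sample, those without CD8+4T1 replicate 2, NaAc replicate 1 or NaAc replicate 2, and the limma adjusted p ranged from 0.00812 to 0.0903 over the 10.

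The Il12rb2 locus is shared with another gene. Serbp1, which encodes an mRNA-binding protein, lies on the opposite strand and overlaps the Il12rb2 gene by 6419 bases in the deposited positions. In the GENCODE annotation of GRCm38, 1519 of the 3794 exon bases of Il12rb2 are also exon bases of Serbp1. Serbp1 averaged 36.3 FPKM and was lower with NaAc (log2 difference -0.39, limma adjusted p = 0.00116). The strand setting of the counting is not given in the sources used here, so reads of the shared exons cannot be told apart and the Il12rb2 value is uncertain to that extent. Il27ra shares 2 exon bases with Palm3, and Il6ra shares 242 with the lncRNA Gm42809, which had at most 11 fragments in a sample.

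Both IL-18 receptor chains were low, and neither passed the test. Il18r1, the ligand-binding chain (ENSMUSG00000026070, chr1:40504712-40540014, plus strand), was at 1.03, 1.43, 1.20, 1.26 and 1.23 FPKM in CD8+4T1 and at 1.35, 1.02, 1.08, 0.945 and 1.56 FPKM with NaAc (log2 difference -0.06, SE 0.16, 95% interval -0.41 to 0.29, limma adjusted p = 0.810). Il18rap, the accessory chain needed for signaling (ENSMUSG00000026068, chr1:40554522-40590865, plus strand), was at 2.41, 2.54, 2.39, 3.18 and 3.67 FPKM in CD8+4T1 and at 1.97, 3.10, 3.03, 3.04 and 4.34 FPKM with NaAc (log2 difference 0.10, SE 0.19, 95% interval -0.32 to 0.53, limma adjusted p = 0.715). The ranges overlapped for both, and at 77 to 125 fragments per sample for Il18r1 the interval of the difference includes changes in either direction. The genes are neighbors, 14508 bases apart.

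In the IFN-γ receptor the ligand-binding chain was higher with NaAc, and no change was detected in the signaling partner. Ifngr1 (ENSMUSG00000020009, chr10:19467697-19485977, plus strand) was at 26.5, 25.9, 26.9, 25.1 and 28.5 FPKM in CD8+4T1 and at 33.0, 36.4, 35.0, 37.0 and 42.2 FPKM with NaAc. All 5 NaAc samples lay above all 5 CD8+4T1 samples, and replicate 5 was the highest of each group. The mean rose from 26.6 ± 1.27 to 36.7 ± 3.45 FPKM (log2 difference 0.46, SE 0.07, 95% interval 0.32 to 0.61, limma adjusted p = 0.000383), and the call held when any single sample was left out.

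Ifngr2, the chain that brings JAK2 to the complex (ENSMUSG00000022965, chr16:91343960-91362511, plus strand), was at 5.53, 4.31, 4.04, 3.82 and 5.55 FPKM in CD8+4T1 and at 3.73, 4.96, 4.28, 5.02 and 4.38 FPKM with NaAc. The ranges overlapped, with replicates 1 and 5 the highest without NaAc and replicate 1 the lowest with it. The difference did not pass the test (log2 -0.05, SE 0.13, 95% interval -0.33 to 0.24, limma adjusted p = 0.810).

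Ifnar1, a chain of the type I interferon receptor (ENSMUSG00000022967, chr16:91282126-91304329, plus strand), was at 29.0, 28.0, 28.1, 26.5 and 28.6 FPKM in CD8+4T1 and at 25.8, 28.7, 31.5, 35.0 and 35.2 FPKM with NaAc. NaAc replicates 3 to 5 lay above all CD8+4T1 samples and replicate 1 below all of them. The difference did not pass the test (log2 0.15, SE 0.08, 95% interval -0.04 to 0.33, limma adjusted p = 0.194), but it did without NaAc replicate 1 (log2 0.21, adjusted p = 0.0198 by limma). Its partner chain Ifnar2 averaged 7.70 ± 0.260 FPKM in CD8+4T1 and 7.48 ± 0.952 FPKM with NaAc (log2 difference -0.05, limma adjusted p = 0.675). Ifnar2, Ifnar1 and Ifngr2 lie in this order on chromosome 16, with 79649 and 39631 bases between them and with Il10rb between Ifnar2 and Ifnar1.

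**Figure D2:**
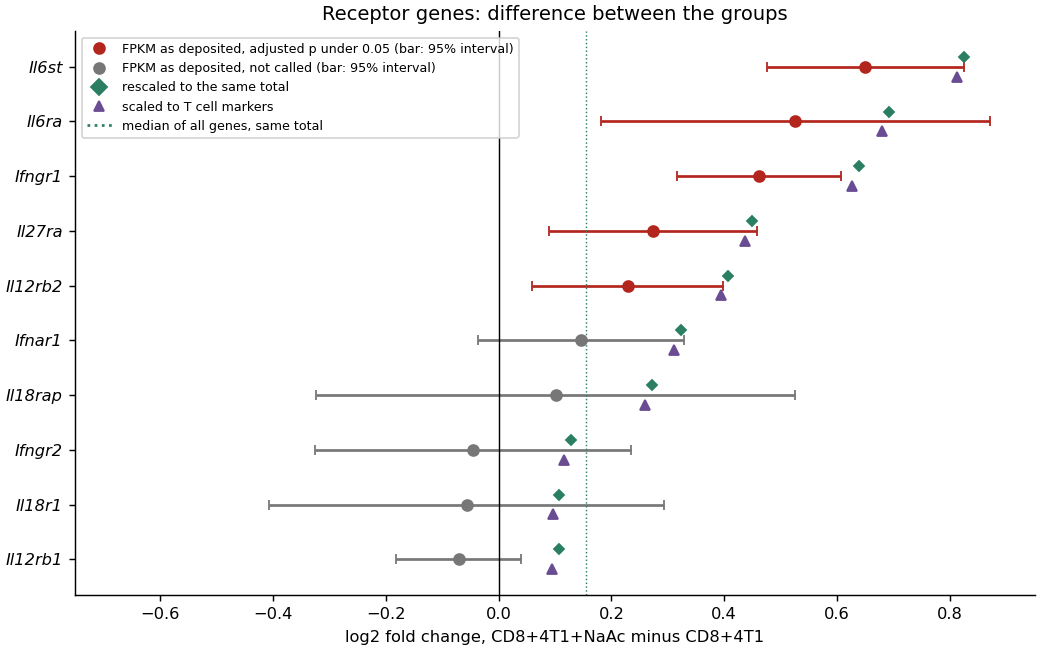
Log2 difference (CD8+4T1+NaAc minus CD8+4T1, horizontal axis) of each receptor gene, with circles for the deposited FPKM and bars for the 95% interval, red where the adjusted p is under 0.05. Diamonds show the values after rescaling to the same total and triangles after scaling to T cell markers, which shift all 10 genes to the right, while the dotted line marks the median of all genes (0.15) under the same total.

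The direction of 3 of the 5 uncalled receptors depended on the scaling. When every sample was rescaled to the same total, 6 of the 10 receptors were called higher, the 5 above and Ifnar1 (log2 0.32, limma adjusted p = 0.0120), against 31.2% of all tested genes, and 0 were called lower, against 8.83%. Scaling to the T cell markers also called 6 higher, against 28.2% of all genes, and 0 lower, against 8.37%, and moved the median of all genes to 0.14. Il12rb1, Il18r1 and Ifngr2 then had log2 differences of 0.11, 0.11 and 0.13 under the same total, above 0 where the deposited values gave -0.07, -0.06 and -0.05, yet below the median of 0.15 over all genes. Il6st (0.82), Il6ra (0.69) and Ifngr1 (0.64) stayed the highest of the 10 under the same total.

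A ratio of chains within a sample does not depend on the scaling of samples, apart from the added 0.1 FPKM, which weighs on low chains such as Il6ra. For this reason 6 ratios of partner chains were compared, as log2 of FPKM + 0.1, with an exact permutation test. The test runs over the 252 ways to assign 10 samples to groups of 5 and cannot give a p below 0.00794. The Ifngr2 to Ifngr1 ratio was 0.208, 0.166, 0.150, 0.152 and 0.195 in CD8+4T1 and 0.113, 0.136, 0.122, 0.136 and 0.104 with NaAc. All NaAc samples lay below all CD8+4T1 samples. The mean ratio fell from 0.174 ± 0.0260 to 0.122 ± 0.0141 (log2 difference -0.51, exact permutation p = 0.00794, two-sided, adjusted over the 6 ratios 0.0476). Without replicate 1 of both groups the difference was -0.42 with an adjusted exact permutation p of 0.0857, although the groups still did not overlap. With 4 samples against 4 the test cannot give an unadjusted p below 0.0286.

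With all 10 samples, the other 5 ratios did not pass after adjustment. The Il12rb2 to Il12rb1 ratio was 1.29 ± 0.130 in CD8+4T1 and 1.59 ± 0.149 with NaAc (log2 difference 0.30, exact permutation p = 0.0238, adjusted 0.0714, n = 5 per group), and without NaAc replicate 1 its log2 difference was 0.35 (adjusted 0.0476). The Il27ra to Il6st ratio was close to constant without NaAc, between 4.86 and 5.07, and was 2.80, 3.68, 4.00, 3.52 and 5.31 with NaAc, where replicate 5 stood above and the other 4 below all CD8+4T1 samples. Its log2 difference was -0.38 (exact permutation p = 0.0476, adjusted 0.0952, n = 5 per group), and without NaAc replicate 5 it was -0.50 (adjusted 0.0238). The ratios of Il6ra to Il6st, Il18rap to Il18r1 and Ifnar1 to Ifnar2 differed by -0.12, 0.16 and 0.20 on the log2 scale, with adjusted exact permutation p of 0.457, 0.524 and 0.191. Without NaAc replicate 2 the difference of Ifnar1 to Ifnar2 was 0.29 (adjusted exact permutation p = 0.0238).

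**Figure D3:**
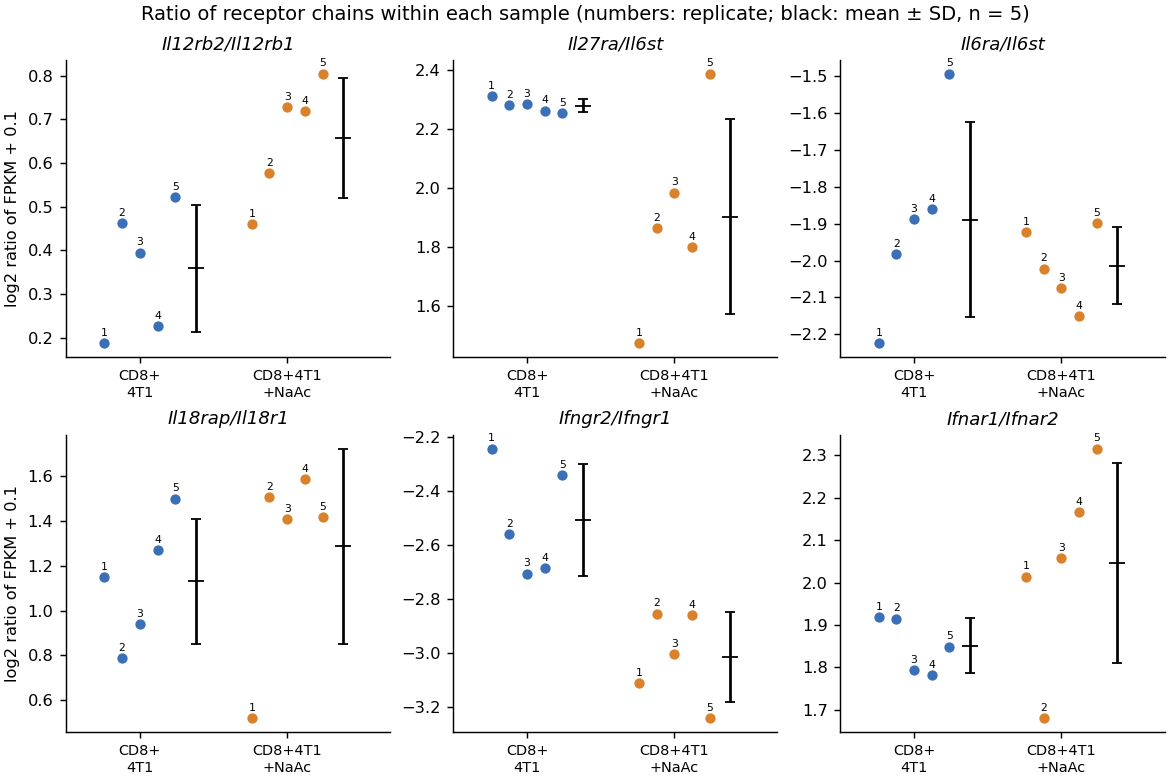
Log2 ratio of FPKM + 0.1 between partner receptor chains in each sample (vertical axes, 1 panel per pair; numbers are replicates, black marks the mean ± SD, n = 5 per group). Ifngr2 to Ifngr1 is the pair whose groups do not overlap, with means of -2.51 and -3.01.

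The mean level of the 8 tested epithelial markers moved with the groups, although 3 of the 8 were not called. The part of the markers in the receptor differences was not tested. The mean log2 level of the 8 tested markers was between 0.71 and 1.56 in CD8+4T1 samples and between 2.42 and 3.26 with NaAc, where Krt7 was among the 8 only through its level with NaAc. Across the 10 samples, with the group means taken out, the correlation of a receptor gene with that mean was 0.40 for Il6st, 0.55 for Il6ra, 0.18 for Il27ra, 0.00195 for Ifngr1 and -0.12 for Il12rb2. For the uncalled receptors it was -0.56 for Il12rb1, -0.40 for Il18r1, 0.47 for Il18rap, 0.325 for Ifngr2 and -0.031 for Ifnar1. For comparison it was 0.81 for Osmr, the oncostatin M receptor chain. Within CD8+4T1 alone it was 0.80 for Il6ra and 0.72 for Osmr, and within the NaAc group 0.0594 and 0.93 (n = 5 each). In the same order of groups it was 0.98 and 0.11 for Il18rap, 0.0216 and 0.81 for Ifngr2, and 0.323 and -0.88 for Il18r1. Both values of each point come from 1 library, and these correlations are descriptions. NaAc replicate 5, with nearly the lowest marker mean of its group (2.45), had the highest Ifngr1, Il27ra and Il12rb2 of all samples but the lowest Il6st and Il6ra of the NaAc group. NaAc replicate 1, with the lowest marker mean of its group (2.42), had the lowest Ifngr1, Il27ra and Il12rb2 of that group and the highest Il6ra.

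**Figure D4:**
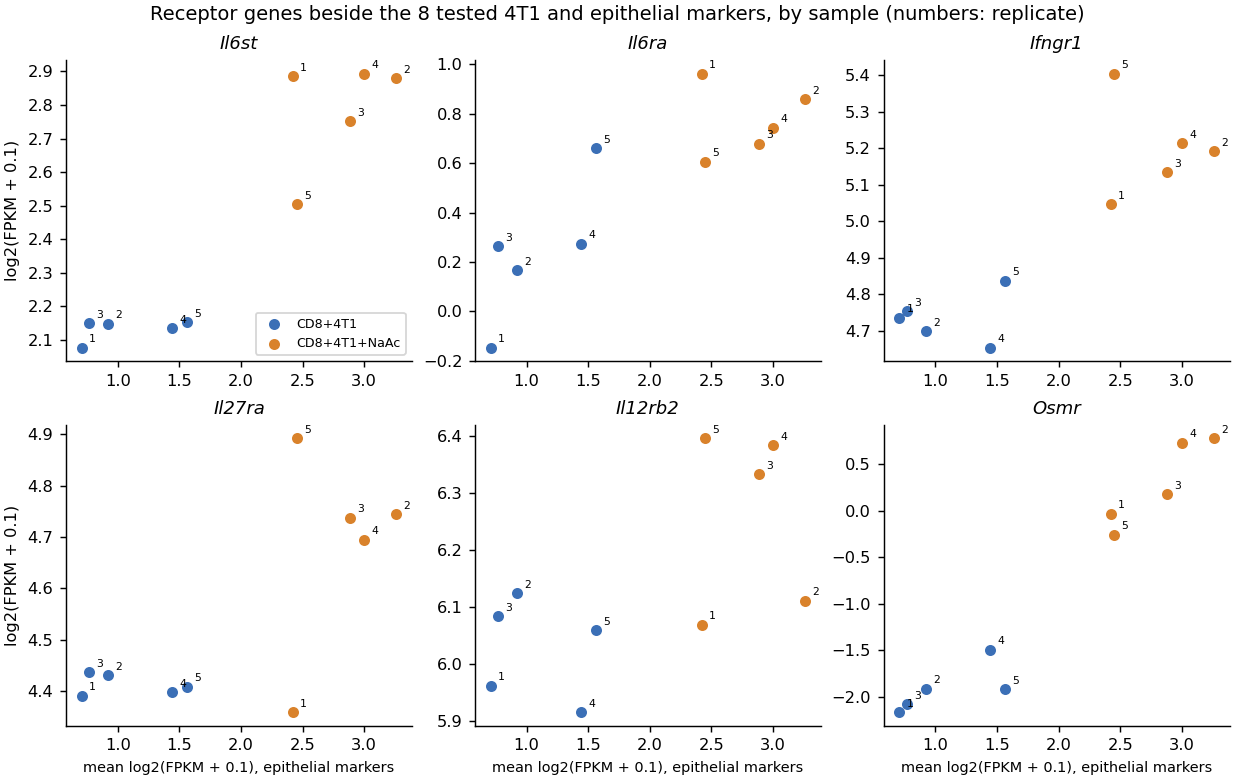
Log2(FPKM + 0.1) of the 5 called receptor genes and of Osmr (vertical axes) beside the mean log2(FPKM + 0.1) of the 8 tested 4T1 and epithelial markers (horizontal axes), 1 point per sample with its replicate number. The groups do not overlap on the marker axis, and the group-centered r with the markers is 0.81 for Osmr and 0.55 or less for the 5 receptors (n = 10), although within CD8+4T1 alone that of Il6ra (0.80) is above that of Osmr (0.72).

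Genes whose pattern over samples was most like that of the receptors were sought among 7053 protein-coding genes averaging 5 FPKM or more, after the group means were taken out (n = 10 samples). The gene most like Il6st was Dnaja3 (r = 0.98), which did not differ by the test between groups (log2 0.09, limma adjusted p = 0.213). For Ifngr1 it was Mcm4 (r = 0.94), also not called (log2 0.04, limma adjusted p = 0.673). For Il6ra it was Hdgf (r = 0.93), which was lower with NaAc (log2 -0.20, limma adjusted p = 0.00707). Without replicate 1 of both groups r was 0.98 for Dnaja3, 0.91 for Mcm4 and 0.83 for Hdgf. Each r is the highest found in a search of 7053 genes, so the likeness is a description and was not tested.

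Related receptor chains outside the 10 were called in both directions. Of 14 such genes 9 were tested, with 4 called higher and 1 lower (median log2 difference 0.20), against 17.6% higher and 19% lower over all tested genes, and with 5 higher and 1 lower under the same total, where 31.2% and 8.83% of all genes were. Osmr, a gp130 partner, rose from 0.169 ± 0.0515 to 1.16 ± 0.402 FPKM (log2 difference 2.19, limma adjusted p = 0.000311) and, as given above, varied with the epithelial markers after the group means were taken out. Il10ra, the IL-10-binding chain, rose from 14.7 ± 2.72 to 23.98 ± 3.48 FPKM (log2 difference 0.71, limma adjusted p = 0.00137). Il11ra1, another gp130 partner, rose from 0.697 to 1.17 FPKM (log2 difference 0.67, limma adjusted p = 0.0147). Il1r1, the IL-1 receptor, rose from 0.435 to 0.835 FPKM (log2 difference 0.78, limma adjusted p = 0.0341), a call kept in 4 of 10 fits that left out a sample, those without CD8+4T1 replicate 3 or NaAc replicate 1, 3 or 5. Sigirr, which dampens IL-1 and IL-18 family receptors and was named after its values were seen, fell from 28.8 ± 0.846 to 21.3 ± 1.15 FPKM (log2 difference -0.44, limma adjusted p = 8.11e-05), with no overlap between groups. Osmr and Il1r1 averaged under 0.5 FPKM without NaAc and passed the filter only through the NaAc group. Their calls, the counts of 4 and 5 higher and the median of 0.20 are therefore no support for a rise of the list.

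Among 12 ligand genes 8 were tested, with 1 called higher and 2 lower (median log2 difference -0.26), against 17.6% and 19% of all genes, and 1 in each direction under the same total, against 31.2% and 8.83%. Il23a, the p19 subunit of IL-23, fell from 17.96 ± 3.12 to 9.14 ± 1.15 FPKM (log2 difference -0.96, limma adjusted p = 0.000173), and Lif, a gp130 cytokine, fell from 31.7 ± 4.28 to 23.8 ± 3.18 FPKM (log2 difference -0.42, limma adjusted p = 0.0142). Under the same total the Lif call was lost (log2 -0.24, limma adjusted p = 0.131). Il6 rose from 0.721 ± 0.249 to 1.40 ± 0.369 FPKM (log2 difference 0.89, limma adjusted p = 0.0183), on 16 to 86 fragments per sample. Ifng, the ligand of IFNGR1 and IFNGR2, was the most abundant at 480.9 ± 61.6 FPKM without and 407.6 ± 107.2 FPKM with NaAc, and its difference did not pass the test (log2 -0.27, limma adjusted p = 0.243). Ebi3 (5.01 and 4.72 FPKM), a subunit of IL-27, Osm (5.92 and 4.33), Il11 (2.42 and 2.06) and Il18 (0.466 and 0.728) did not pass either. Il18 was at 0 in NaAc replicate 1, and without that sample its log2 difference was 0.84 (limma adjusted p = 0.0493), and it passed the filter only through the NaAc group. Il12a, Il12b, Il27 and Ifnb1 were below the filter, with at most 10 fragments for any of these 4 genes in a sample. Transcripts for the subunits of IL-12 and for the p28 subunit of IL-27 were thus near the limit of detection in these samples.

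Downstream of the receptors, 5 of 13 JAK, STAT and MyD88 pathway genes were called higher and 1 lower (median log2 difference 0.09), against 17.6% and 19% of all genes. Rescaled to the same total, the list had 7 higher and 1 lower calls, against 31.2% and 8.83%. The kinases Tyk2 (16.9 ± 1.18 to 21.0 ± 0.350 FPKM, log2 difference 0.31, limma adjusted p = 0.00107), Irak1 (log2 0.28, adjusted p = 0.0134) and Irak2 (log2 0.27, adjusted p = 0.00249) rose, and the ubiquitin ligase Traf6 fell (16.5 ± 0.736 to 13.0 ± 1.07 FPKM, log2 difference -0.35, adjusted p = 0.00141). Stat3, named after its values were seen, also rose (log2 difference 0.19, limma adjusted p = 0.0245). The Stat3 call was kept in 3 of 10 fits that left out a sample, those without CD8+4T1 replicate 5 or NaAc replicate 1 or 2. Stat4, which carries the IL-12 signal, was at 22.2 ± 2.41 and 21.1 ± 1.98 FPKM and did not pass the test.

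Of 9 inhibitors of these receptors, 2 were called higher and 2 lower (median log2 difference -0.06), shares near the 17.6% and 19% of all genes. Socs3, which binds gp130 and blocks its kinases, rose from 11.9 ± 3.01 to 26.3 ± 6.07 FPKM with no overlap between groups (log2 difference 1.13, limma adjusted p = 0.00110). Socs1, an inhibitor of IFN-γ receptor signaling, rose from 10.8 ± 3.34 to 18.02 ± 2.82 FPKM (log2 difference 0.76, limma adjusted p = 0.00936). The phosphatases Ptpn6 (125.2 ± 4.05 to 94.7 ± 2.22 FPKM, log2 difference -0.40, limma adjusted p = 5.91e-05) and Ptpn2 (20.4 ± 0.767 to 16.1 ± 1.10 FPKM, log2 difference -0.34, adjusted p = 0.000815) fell. Rescaled to the same total, the list had 4 higher and 1 lower calls, against 31.2% and 8.83% of all genes, and Ptpn2 lost its call (log2 -0.16, limma adjusted p = 0.0755).

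Of 14 genes that interferons induce, 2 were called higher, 1 lower and 11 in neither direction, against 17.6% higher and 19% lower over all genes (median log2 difference -0.03, against -0.02 over all genes). Ifit3, 1 of the 11, averaged 0.420 FPKM without NaAc and 0.764 FPKM with it. It passed the filter only through the NaAc group and enters the median. Oasl1 rose from 0.733 to 1.52 FPKM (log2 difference 1.02, limma adjusted p = 0.00882) and Ifit1 from 1.31 to 2.03 FPKM (log2 difference 0.60, limma adjusted p = 0.00296), both at low levels, while Psmb9, an immunoproteasome subunit, fell from 94.5 ± 8.50 to 76.5 ± 4.44 FPKM (log2 difference -0.30, limma adjusted p = 0.00713). Under the same total the Psmb9 call was lost (log2 -0.12, limma adjusted p = 0.109), which left 2 of the 14 called higher and 0 lower, against 31.2% and 8.83% of all genes.

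Of 10 genes that IL-12, IL-18 or IL-27 induce, 8 were tested, with 1 called higher and 3 lower (median log2 difference -0.07), against 17.6% and 19% of all genes. Rescaled to the same total, the list had 3 higher and 3 lower calls, against 31.2% and 8.83%. Tbx21, the transcription factor T-bet, fell from 53.4 ± 2.62 to 35.8 ± 2.88 FPKM (log2 difference -0.58, limma adjusted p = 7.55e-05). The stress response genes Gadd45b (115.9 ± 5.35 to 85.2 ± 2.71 FPKM, log2 difference -0.44, limma adjusted p = 6.64e-05) and Gadd45g (117.6 ± 10.9 to 69.8 ± 23.9 FPKM, log2 difference -0.81, adjusted p = 0.00759) also fell. Hlx, a homeobox factor, rose from 0.264 to 0.785 FPKM on 6 to 39 fragments per sample (log2 difference 1.29, limma adjusted p = 0.00554), and it passed the filter only through the NaAc group.

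**Figure D5:**
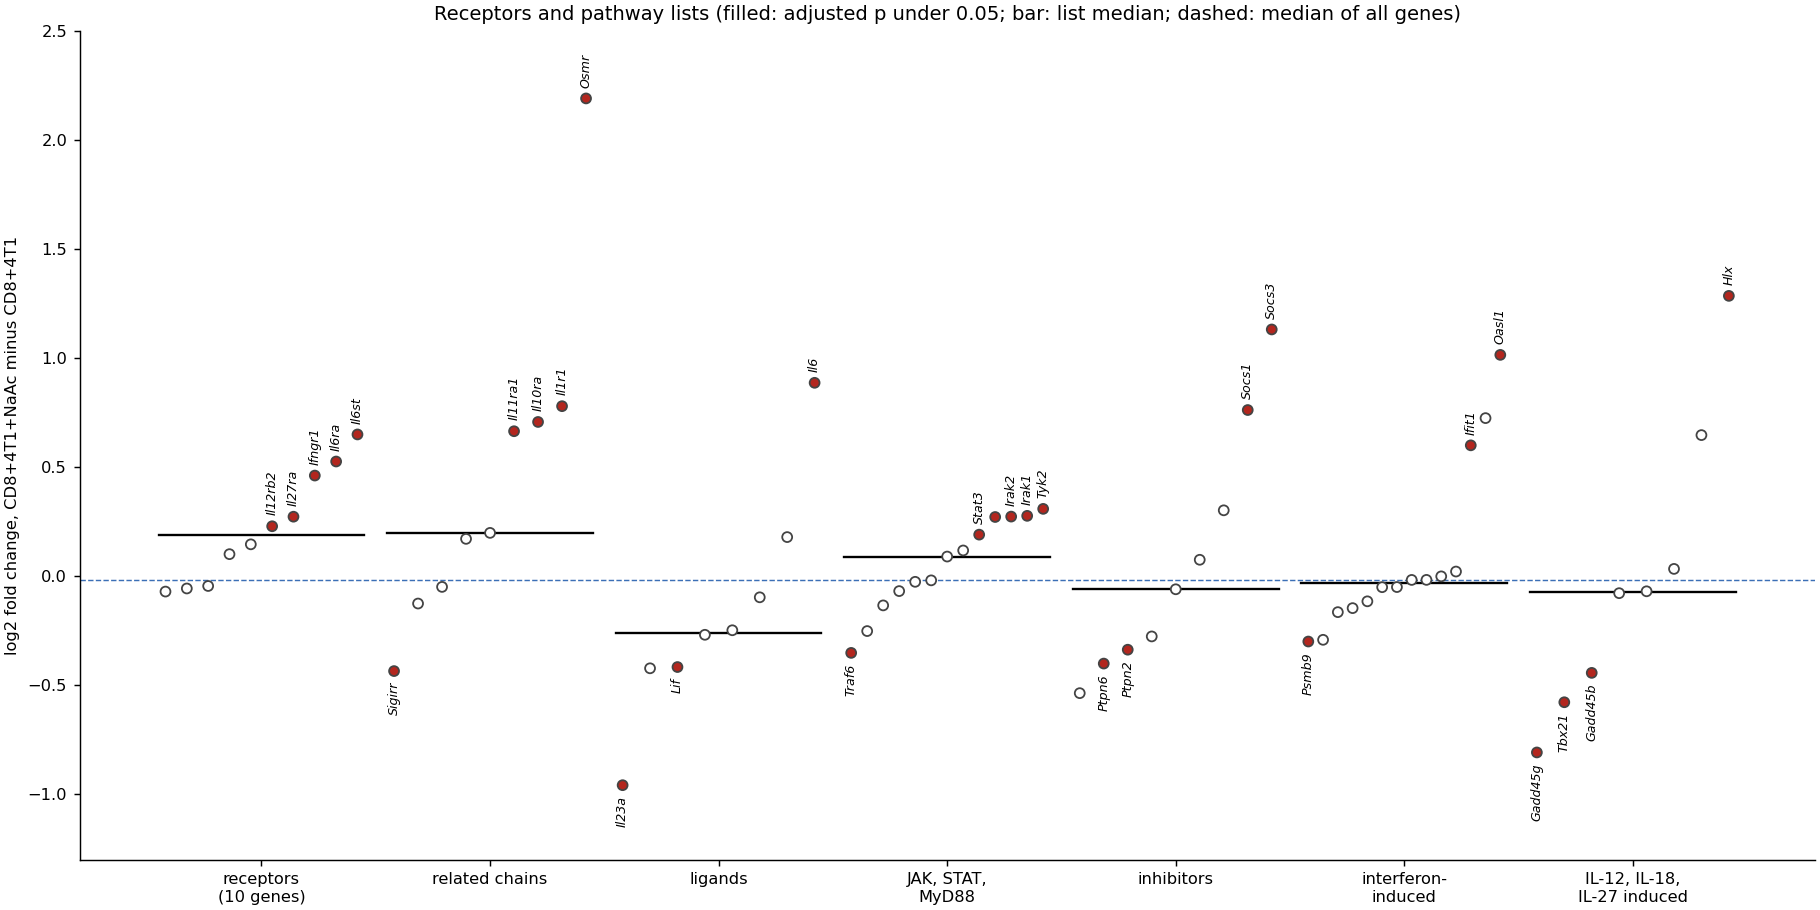
Log2 difference (CD8+4T1+NaAc minus CD8+4T1, vertical axis) of the 10 receptor genes and of the tested genes of 6 pathway lists (horizontal axis). Each point is 1 gene, in order of its value. Points are filled where the adjusted p is under 0.05, and filled points are labeled where the text names the gene. A bar marks each list median and a dashed line the median of all tested genes (-0.02). The median is 0.19 for the receptors, 0.20 for the related chains and -0.26 for the ligands. Some genes passed the filter only through the NaAc group, so the medians are not ranked. They are Osmr and Il1r1 (related chains), Il18 (ligands), Ifit3 (interferon-induced) and Hlx (IL-12, IL-18 and IL-27 induced).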

How the data were processed

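CD8+ T cells of 10 samples, which the paper calls purified, were sequenced, 5 per group, with group and replicate number taken from the labels. The authors deposited FPKM with 1 column per sample, not pooled, beside a gene length column of another kind that is not a measurement. Their processing notes name fastp, HISAT2 2.0.5, StringTie 1.3.3b and featureCounts 1.5.0-p3, and the authors tested the groups with DESeq2. The genome build, annotation and strand setting are not given in the sources used here. FPKM times gene length gave whole fragments for 100% of values (within 0.1). A gene at low FPKM rests on few fragments, which limits its precision.

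From these values, genes averaging 0.5 FPKM or more were compared on log2(FPKM + 0.1) with limma 3.58.1 in R 4.3.3 (variance trend, robust moderation), adjusted over 15710 genes by Benjamini-Hochberg. The fit was tested on simulated data. Ratios of chains were compared by exact permutation. Shared exons came from the GENCODE annotation of GRCm38.

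The text names all 10 receptors, Ifnar2, Ifng, ligands above 1 FPKM in any sample, up to 4 called genes of each pathway list with the largest change, and, for 3 receptors, the gene most like it. Ifit3 is named for the way it passed the filter. The counts of the JAK, STAT and MyD88 list include a gene whose own values are not given here. Members and lists were chosen with earlier results of these data known. Alternatives were other pseudocounts, filters and scalings, no variance trend, the replicate number as a block, limma's voom on the recovered fragments (which called 6015 genes, against 5742) and samples left out.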

Additional observations from a re-analysis of the deposited data

Results flagged for a closer look

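Among the 20 groups of 5 samples formed by the 10 receptor genes and the 2 conditions, 1 held a sample far from the other 4. Il6st in CD8+4T1 replicate 1 was 4.12 FPKM, with a gap to the next sample of 0.768 of the range of the group. The other 4 samples were within 4.29 to 4.35 FPKM, so the gap is small beside the difference between the groups. Chance gives such a gap in about 1 in 20 groups.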

How the results depend on the processing

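Il6st and Ifngr1 kept their calls under all 10 alternatives that used every sample (limma adjusted p from 1.26e-05 to 0.00237 and from 4.63e-05 to 0.00186), without replicate 1 of both groups and without each sample in turn (log2 differences of 0.62 to 0.72 and 0.41 to 0.50 without each sample). Il27ra kept its call under the same 10 (0.000891 to 0.0499), with 0.22 to 0.35 without each sample in turn. Where a call or direction changed, the cause was not tested. Rescaling to the same total gave log2 differences of 0.11 for Il12rb1, 0.11 for Il18r1, 0.13 for Ifngr2, 0.32 for Ifnar1, 0.13 for Ifnar2 and 0.0769 for Ebi3. T cell marker scaling gave 0.094, 0.0958, 0.12, 0.31, 0.11 and 0.0646 for the same genes. Without replicate 1 of both groups the values were 0.38 for Il6ra, 0.083 for Ifngr2, 0.22 for Ifnar1 (called), 0.0041 for Ifnar2, 0.97 for Il18 (called, and past the filter only through the NaAc group) and -0.42 for the ratio of Ifngr2 to Ifngr1 (adjusted p = 0.0857, exact permutation, whose smallest unadjusted p is 0.0286 there). Il12rb2 stayed at 0.23 but lost its call with no filter on low values (limma adjusted p = 0.0669) and without trend and robust moderation (0.0567). Il18 was -0.33 with a pseudocount of 0.01 and -0.0347 with voom. With a pseudocount of 1 the ratio of Il12rb2 to Il12rb1 (0.30) and that of Il6ra to Il6st (-0.24) passed the exact permutation test, both at an adjusted p of 0.0476. With a mean of at least 5 FPKM, 3733 genes were called in place of 5742 and 8 pathway genes were called higher in place of 15, and Il6ra, Il18r1, Il18rap and Ifngr2 had no value.

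Replicate numbers run from 1 to 5 in both groups, but same-numbered samples did not deviate together (r from -0.0283 to 0.0694 over 15710 genes). With the replicate block 5399 genes and 3 receptors were called (5 without it), since Il12rb2 (0.23, limma adjusted p = 0.0577) and Il6ra (0.53, 0.0726) lost their calls, as did Il1r1 (0.78, 0.0642) and Il6 (0.89, 0.0643), and the ratio of Ifngr2 to Ifngr1 was -0.51 (adjusted p = 0.188, exact sign-flip test, in which 5 pairs cannot give a raw p below 0.0625).

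Leaving out each sample in turn gave 4947 to 6965 called genes of 15710 tested, 3 to 6 of the 10 receptors called higher and 13 to 18 of 72 listed pathway genes called higher. The highest of each count came without NaAc replicate 1, and every other fit called 5382 genes or fewer. With all samples, 17.6% of all tested genes were called higher. The pathway counts include Osmr and Hlx, which passed the filter only through the NaAc group, so they are no support for a rise of the pathways. NaAc replicate 1 had 20233 genes above 0, against 24681 to 25088 in the other NaAc samples. The lowest receptor count, 3, came without CD8+4T1 replicate 4 or 5 or without NaAc replicate 3, 4 or 5. The log2 differences ranged over 0.19 to 0.28 for Il12rb2, 0.43 to 0.63 for Il6ra, -0.15 to 0.0147 for Il18r1, -0.0279 to 0.25 for Il18rap, -0.11 to 0.0221 for Ifngr2, 0.10 to 0.21 for Ifnar1, -0.11 to 0.0083 for Ifnar2 and -0.0695 to 0.84 for Il18. The ratios ranged over 0.26 to 0.35 (Il12rb2 to Il12rb1), -0.50 to -0.27 (Il27ra to Il6st), -0.21 to -0.03 (Il6ra to Il6st), -0.56 to -0.44 (Ifngr2 to Ifngr1), 0.07 to 0.35 (Il18rap to Il18r1) and 0.13 to 0.29 (Ifnar1 to Ifnar2). Il6ra (116 to 279 fragments per sample) and Il18r1 (77 to 125) are those of the 10 receptors with the fewest fragments, and the Il18 value rests on 0 to 22.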
